A study of Drosophila melanogaster with 3 samples.

Results

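LPLC2 (lobula plate/lobula columnar type 2) neurons were profiled by single-cell RNA sequencing at 48, 72 and 96 h after puparium formation (APF), together with the related types LPLC1 and LC4. The cells described here are those that the deposited annotation calls LPLC2 at each stage. They are 2910 of 6003 annotated cells, with 1442 of 2595 at 48 h, 994 of 2369 at 72 h and 474 of 1039 at 96 h APF, which are 55.6, 42.0 and 45.6% of the cells of each stage. The other 3093 cells are LPLC1, LC4 and a small class that the annotation calls X and the paper describes as unknown ectopic cell types. Their pool is called the rest below.

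All neurons were sorted from dissociated fly brains by the nuclear green fluorescent protein of UAS-His2A-GFP, driven by a different split-GAL4 pair for each type. The LPLC2 animals carried R19G02-p65.AD and R75G12-GAL4.DBD, the LPLC1 animals R64G09-p65.AD and R37H04-GAL4.DBD, and the LC4 animals R47H03-p65.AD and 72E01-GAL4.DBD. Females of each driver were crossed to males that brought the reporter and the third chromosome of a DGRP (Drosophila Genetic Reference Panel) wild-type strain, so that every animal was heterozygous for 1 such chromosome and each cell could be assigned to its strain by sequence variants. The strains were line_399, line_535, line_555, line_730, line_799 and line_805 at 48 h, and line_320, line_399, line_535, line_730, line_799 and line_805 at 72 and 96 h APF. Animals of strains line_399, line_535, line_555 and line_320 were collected earlier and were on average about 2 h older than those of line_730, line_799 and line_805.

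The unit of replication is the cross, that is all cells of 1 type and 1 DGRP strain at 1 stage, with their unique molecular identifiers (UMIs) summed. LPLC2 had 6 crosses at each stage, with 119 to 364, 87 to 248 and 55 to 109 cells per cross at 48, 72 and 96 h APF. Cells of all crosses and types of a stage went through 1 droplet lane, so a stage and its lane cannot be told apart. Both sexes were mixed, and doublets of cells from the same strain could not be removed. Spread between crosses therefore holds the effect of the third chromosome, the animals and the counting. Levels are UMIs per 10000 UMIs of the cross, and since tags come from the 3′ ends of transcripts, they are compared between cells and not between genes.

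Visual projection neurons carry feature signals from the optic lobe to the central brain. LPLC2 dendrites spread in the lobula and in the layers of the lobula plate, and each neuron responds to an expanding dark object, the visual sign of an approaching predator. The axons of the type converge on 1 optic glomerulus, where they contact the giant fibre, a descending neuron that triggers a fast escape takeoff. LPLC1 and LC4 are looming-sensitive columnar types with glomeruli of their own. During the second part of pupal development such neurons choose partners and build synapses, and large families of immunoglobulin-type surface proteins, among them the Dpr proteins and their DIP (Dpr-interacting protein) partners and the Beat proteins and their Side partners, are expressed in cell-type-specific combinations.

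LPLC2 crosses held 945301 to 6256891 UMIs each. Median UMIs per LPLC2 cell were 18114, 20330 and 16775 at the successive stages, and 202, 143 and 81 LPLC2 cells lay under 10000 UMIs, the lower limit in the methods. Between 1 and 5 cell barcodes were shared by a pair of stages. By the paper's methods, the LC4 driver was crossed to only 4 of the DGRP strains at 72 and 96 h APF. Strains line_320 and line_730 accordingly held 0 of 751 and 0 of 307 cells labelled LC4 at these stages. Such counts allow shares of LC4 labels of up to 0.399 and 0.977%. The rest of those crosses thus held no LC4 cell. Class X made up 3.01, 5.28 and 12.1% of all cells. Of the genes that mark other cells, the summed level of 6 glial markers in LPLC2 was 1.63 to 2.21, 0.716 to 0.818 and 0.402 to 0.674 at the 3 stages, against 0.775 to 1.30, 0.488 to 1.80 and 0.417 to 0.999 in the rest. Nearly all of it came from nrv2, which was itself set apart as higher in LPLC2 at 48 h (1.03), while repo stayed at or below 0.00683. The 5 photoreceptor markers summed to at most 0.201 in LPLC2 but to as much as 9.46 in the rest and 37.7 in class X at 96 h. Of the 3 haemocyte markers, Hml had no UMI in LPLC2, and the list summed to 2.53 to 3.48, 1.78 to 2.21 and 1.03 to 1.30, nearly all from Pxn, against 3.75 to 5.65, 0.856 to 2.42 and 0.328 to 1.09 in the rest. Pxn was called positive in both steps of the test of change over time below (1.06 and 0.66), where it fell less in LPLC2 than in LPLC1 and LC4. The 8 markers of other optic lobe neurons summed to 16.6 to 18.4 in LPLC2 at 48 h and to 11.4 to 12.8 at 72 h. The rest had 9.57 to 12.1 and 6.53 to 8.77 at these stages. At 96 h the LPLC2 mean of 12.7 lay within the 9.28 to 14.1 of the rest. Of this list, bi was set apart as higher and svp as lower at 72 h, and neither was without class X. The part of such cells in the results was not tested. More than 10 UMIs of br, a gene that LPLC1 cells hold at a median of 78.5 to 96 UMIs, were found in 5 of 1442, 1 of 994 and 0 of 474 LPLC2 cells, where the last count allows a share of up to 0.633%.

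The annotation was set beside 5 transcription factors that mark LPLC2, namely the LIM homeobox factor Lim1, the Sox factor Sox102F, the POU factor acj6 and the paired spalt genes salm and salr. All 5 were present in LPLC2 at every stage. Lim1 levels in the 6 LPLC2 crosses were 8.58 at the lowest, 9.07 at the median and 10.0 at the highest at 48 h, against 2.04, 2.48 and 3.78 in the rest. In LC4, Lim1 averaged 0.105, 0.0278 and 0.0289 and Sox102F 0.111, 0.0587 and 0.0377 at the 3 stages. In LPLC1, however, Lim1 averaged 4.0, 4.45 and 6.63 and Sox102F 4.06, 3.76 and 5.21, so that these markers part LPLC2 from LC4 and only in degree from LPLC1. Levels of acj6 were 0.80 to 0.94 log2 units above the rest, and salm and salr were 0.49 to 0.83 above it, with LPLC1 means of salm (3.48, 2.24 and 2.61) above the LPLC2 medians of 3.24, 1.74 and 2.41. Since the clusters had been named by marker genes, the presence of these markers was fixed by the annotation and is no independent check of the label. It is used here as the annotation gives it.

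To describe what sets LPLC2 apart, its crosses were compared with the rest at each stage. A gene was called set apart if its fitted fold change was at least 2 and the levels of the LPLC2 crosses did not overlap those of the rest. No p-value is given, because the annotation was itself made by clustering the expression of these cells. At 48 h APF 271 of 6769 genes were set apart as higher (4%) and 332 as lower (4.9%). The counts were 308 (4.65%) and 266 (4.02%) of 6625 at 72 h, and 134 (2.37%) and 210 (3.71%) of 5661 at 96 h. Over all stages, 57 genes (1.03% of 5532) were higher and 96 (1.74%) lower each time, and 39 and 32 of these were also set apart from LPLC1 and from LC4 taken singly. Since class X is in the rest, the comparison without it is given too: 78 genes were then higher at every stage, 55 of them among the 57, and 68 were lower, 61 of them among the 96. At 96 h the count of higher genes was 190 without class X. It was 307 when LPLC1 and LC4 were weighted equally, also without class X. In that comparison overlap was judged on the 4 strains that had both types.

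Genes with at least 1 UMI per 10000 on average in LPLC2 at each stage were ranked by their median difference. The 12 of them with the largest excess in LPLC2 were set apart from the rest, from LPLC1 and from LC4 at each stage. DIP-eta (FBgn0031725, 2L, 5601723 to 5617946, minus strand) encodes an immunoglobulin-domain partner of Dpr proteins. Its LPLC2 levels were 4.80, 5.27 and 6.42 (lowest, median and highest of 6 crosses) at 48 h, 4.21, 4.60 and 4.70 at 72 h, and 5.73, 6.56 and 7.05 at 96 h. In the rest the same values were 0.0620, 0.0883 and 0.118, then 0.0212, 0.0853 and 0.427, then 0.0482, 0.225 and 0.336. Every LPLC2 cross was thus far above every cross of the rest, by 5.94 ± 0.13, 5.24 ± 0.54 and 4.86 ± 0.24 log2 units (fit ± SE). The higher values of the rest at 72 and 96 h lay in class X, whose mean was 0.878 and 0.748, against at most 0.126 in LPLC1 and LC4 at any stage. Shares of cells were compared after thinning every cell to 10000 UMIs, since median UMIs per cell were 21282, 23182 and 17688 in LPLC1 and 23658, 29764 and 21840 in LC4. In the 1240, 851 and 393 LPLC2 cells deep enough, DIP-eta had a UMI in 98.3, 98.0 and 99.0% of LPLC2 cells (95% exact intervals 97.4 to 98.9, 96.8 to 98.8 and 97.4 to 99.7%). The share was 5.04, 1.78 and 4.23% in LPLC1 cells and 7.83, 1.67 and 1.08% in LC4 cells. Before thinning it was 99.2, 99.3 and 99.4% in LPLC2 and 8.41, 5.88 and 6.42% in LPLC1. The intervals cover counting error only.

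The gene hbs (hibris, FBgn0287864) encodes a nephrin-like immunoglobulin protein that binds Roughest-type partners in the fly eye and muscle. Its levels were lower at 72 h than at 48 h in all 3 types. LPLC2 levels were 3.0, 3.18 and 3.97 at 48 h, 0.843, 1.06 and 1.2 at 72 h, and 0.982, 1.0 and 1.39 at 96 h. The rest had medians of 0.770, 0.0843 and 0.0498 with highest values of 0.994, 0.110 and 0.203, giving log2 differences of 2.09 ± 0.09, 3.73 ± 0.18 and 3.95 ± 0.36. The Wnt5 receptor drl (derailed, FBgn0015380, 2L), a Ryk-family protein of axon guidance, had LPLC2 levels of 4.57, 5.67 and 6.40 at 48 h, 4.34, 4.71 and 5.35 at 72 h, and 1.68, 1.89 and 2.06 at 96 h. The rest stayed between 0.168 and 0.707, and the excess was 3.45 ± 0.20, 4.16 ± 0.18 and 1.78 ± 0.13. LC4 carried more drl than LPLC1 at each stage, with means of 1.21, 0.368 and 0.433 against 0.0728, 0.0933 and 0.219.

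Among receptors, Dh44-R2 (FBgn0033744), a receptor for the diuretic hormone Dh44, had LPLC2 levels of 1.24, 1.30 and 1.47 at 48 h, 1.17, 1.31 and 1.43 at 72 h, and 1.47, 1.74 and 1.99 at 96 h. The rest was never above 0.237, and the difference was 2.80 ± 0.09, 3.69 ± 0.13 and 3.52 ± 0.18. Exons of Dh44-R2 overlap those of fdl and CG34234 on the other strand, and whether the counting used strand is not given in the sources used here. The same holds for CG33543, AdoR, Sytalpha, Cbp53E, Ccn, esn, bma, pyd and CG6006 below, which have such neighbours too. Dop1R2 (FBgn0266137, 3R), a dopamine receptor, had LPLC2 levels of 2.05, 2.90 and 3.79, then 1.46, 1.82 and 2.63, then 1.36, 1.83 and 2.21. Its highest value in the rest was 0.618, 0.296 and 0.357, and the log2 difference 2.88 ± 0.24, 3.23 ± 0.22 and 3.64 ± 0.34. Rh7 (FBgn0036260, 3L), a rhodopsin found outside the photoreceptors of the compound eye as well as in them, had LPLC2 levels of 1.06, 1.16 and 1.30, then 1.11, 1.32 and 1.56, then 1.27, 1.5 and 1.95. The rest did not exceed 0.256, while class X averaged 0.674, 0.442 and 0.404, and the difference was 3.14 ± 0.16, 3.84 ± 0.18 and 3.49 ± 0.32.

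The transcription factors in this group were rn (rotund, a zinc-finger protein) and bab2 (bric à brac 2, a BTB-domain protein). For rn (FBgn0267337, 3R) the LPLC2 levels were 2.11, 2.93 and 3.77 at 48 h, 2.09, 2.36 and 2.79 at 72 h, and 1.49, 2.31 and 3.21 at 96 h. The rest reached 0.448, 0.104 and 0.531, and the log2 difference was 3.44 ± 0.18, 5.08 ± 0.19 and 2.60 ± 0.31. For bab2 (FBgn0025525, 3L) LPLC2 had 2.13, 2.44 and 2.80, then 0.992, 1.10 and 1.28, then 0.952, 1.10 and 1.38. The rest was at most 0.445, 0.273 and 0.268, a difference of 2.96 ± 0.14, 2.45 ± 0.16 and 2.64 ± 0.21. The neighbouring paralogue bab1 was set apart at every stage too, by 2.92, 2.71 and 3.32 log2 units, at LPLC2 medians of 0.968, 0.368 and 0.315. So was the homeodomain factor pros (prospero), with LPLC2 levels of 89.3, 97.0 and 101 at 48 h against 23.8, 25.6 and 29.2 in the rest, and excesses of 1.89, 1.32 and 1.29.

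Of the 4 other genes, CG12836 (FBgn0033140, 2R) showed the largest median difference. LPLC2 levels were 4.41, 5.05 and 6.04, then 4.69, 5.16 and 6.27, then 2.94, 3.65 and 4.04, against a highest value in the rest of 0.170, 0.117 and 0.173. The difference was 6.07 ± 0.22, 6.13 ± 0.21 and 5.82 ± 0.35. CG12836 was less evenly spread over LPLC2 cells than DIP-eta: in thinned cells its variance was 3.02, 4.49 and 6.54 times its mean, against 1.96, 1.36 and 1.47 for DIP-eta, and it had a UMI in 93.3, 87.3 and 60.6% of LPLC2 cells. CG43658 (FBgn0263706, X) fell from an LPLC2 median of 12.5 at 48 h to 2.53 and 4.22, with differences of 2.46 ± 0.18, 3.56 ± 0.26 and 3.76 ± 0.24. The tubby-family gene ktub (king tubby) had medians of 1.33, 1.08 and 1.09 in LPLC2 and of 0.179, 0.161 and 0.120 in the rest. CG42673 had medians of 2.10, 4.05 and 2.66, with an excess of 1.65 ± 0.10, 2.66 ± 0.25 and 2.76 ± 0.24.

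**Figure D1:**
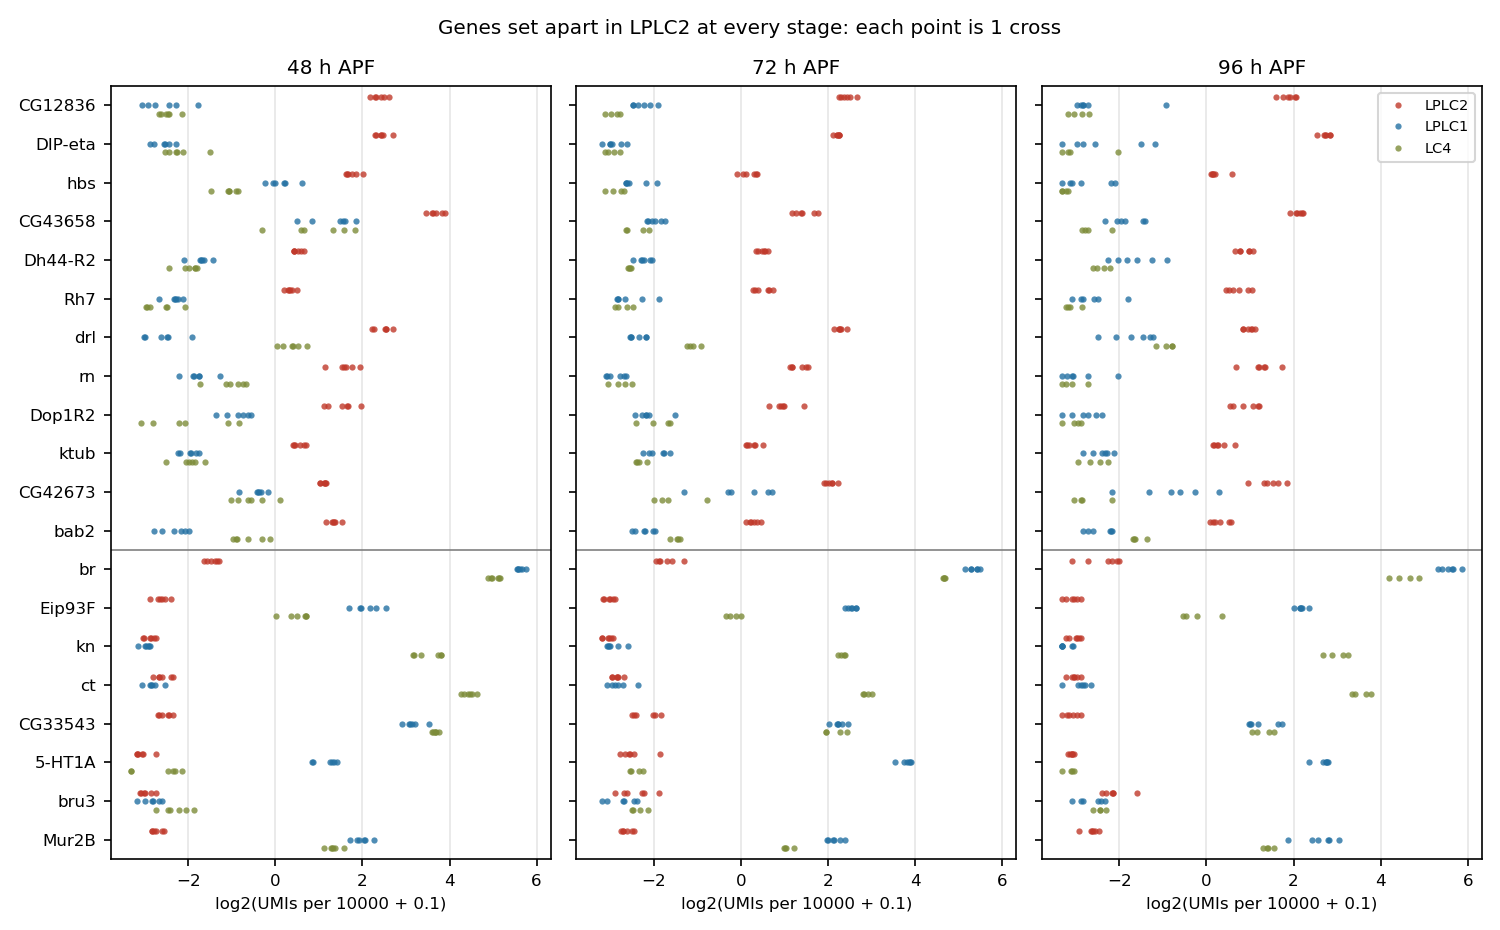
Levels of the 20 genes with the largest median difference in LPLC2, 12 higher (above the line) and 8 lower, at 48, 72 and 96 h APF. Only genes with at least 1 UMI per 10000 on average in the higher class at each stage were ranked. Each point is 1 cross on a log2(UMIs per 10000 + 0.1) axis, in red for LPLC2, blue for LPLC1 and green for LC4, with class X not drawn. For the 12 upper genes the red points lie right of all others at each stage, whereas kn, ct and bru3 are as low in LPLC1 as in LPLC2.

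The 8 genes with the largest deficit were taken among those with at least 1 UMI per 10000 on average in the rest at each stage. Of these 8, br, Eip93F, CG33543 and Mur2B were lower than in LPLC1 and in LC4 at every stage. br (broad, FBgn0283451, X, 1575132 to 1664869), an ecdysone-response transcription factor, had LPLC2 levels of 0.224, 0.273 and 0.305 at 48 h, 0.160, 0.193 and 0.304 at 72 h, and 0.0182, 0.116 and 0.147 at 96 h. In the rest the lowest value was 37.0, 27 and 23.2 and the highest 44.5, 38.8 and 35.9, so that LPLC2 was lower by 7.25 ± 0.09, 7.25 ± 0.18 and 8.14 ± 0.26 log2 units. In thinned cells br had a UMI in 13.5, 15.4 and 9.67% of LPLC2 cells and in at least 99.7% of LPLC1 and LC4 cells, and before thinning in 25.6, 27.2 and 13.5% of LPLC2 cells. Mur2B, a mucin-related gene whose exons overlap those of br on the other strand, had LPLC2 medians of 0.0470, 0.0582 and 0.0627 against 3.16, 2.77 and 3.39. Its deficit cannot be told apart from that of br where reads are shared.

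Eip93F (FBgn0264490, 3R), an ecdysone-induced transcription factor, had LPLC2 levels of 0.0354, 0.0612 and 0.0895 at 48 h, of 0.0107, 0.0238 and 0.0341 at 72 h, and from 0 to 0.0349 at 96 h. The rest lay between 1.33 and 5.80 over the stages, with differences of −5.83 ± 0.15, −7.15 ± 0.35 and −7.45 ± 0.44. CG33543, which encodes an immunoglobulin-domain protein, had LPLC2 medians of 0.0723, 0.118 and 0.0161 against 9.48, 4.22 and 2.05. br and Eip93F thus stayed below the other types at all 3 stages. Of the 16 temporal and hormone genes tested, 2, 3 and 0 were higher and 2, 3 and 2 lower, br and Eip93F among the lower each time. Over all genes, 4, 4.65 and 2.37% were higher and 4.9, 4.02 and 3.71% lower. Imp and mamo were higher at 48 and 72 h, and ab was higher and Syp lower at 72 h. Without class X 3 of the list were higher at 96 h.

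The other 4 genes were low in LPLC2 and in at least 1 other type. kn (knot), a transcription factor of the EBF family, and ct (cut), a homeodomain factor, were LC4 genes here, with LC4 means of 11.5, 4.92 and 7.93 for kn and 21.7, 7.35 and 11.7 for ct. LPLC2 medians were 0.0372, 0.0218 and 0.0268 for kn and 0.0601, 0.0390 and 0.0216 for ct, and LPLC1 means were at most 0.0325 and 0.0461. The serotonin receptor 5-HT1A was found in LPLC1 and class X, with LPLC1 means of 2.18, 13.8 and 6.34 and class X means of 3.90, 3.49 and 2.53, against LPLC2 medians of 0.0169, 0.0696 and 0.0175 and LC4 means of at most 0.0892. The RNA-binding protein gene bru3 was low in all 3 types and averaged 31.7, 38.6 and 39.8 in class X. Without class X its median difference over the stages was 0.23 log2 units instead of −6.35, and its deficit was thus one against class X.

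The surface protein families were then counted as a whole, with lists that were chosen with earlier results of these data known. Each count of members is to be read beside the shares over all genes, which were 4, 4.65 and 2.37% higher and 4.9, 4.02 and 3.71% lower at 48, 72 and 96 h. Of 21 dpr genes tested, 4 were higher and 9 lower than the rest at 48 h, and 6 were lower and none higher at 72 and at 96 h (of all genes, 4% were higher and 4.9% lower at 48 h), with median differences of −0.05, 0.16 and 0.12 beside −0.007, −0.006 and −0.017 over all genes. The 6 genes dpr2, dpr3, dpr6, dpr8, dpr10 and dpr12 were lower at each stage. dpr12, for example, had LPLC2 levels of 0.266, 0.293 and 0.407 against 3.08, 3.50 and 3.96 in the rest at 48 h, and differences of −3.49 ± 0.11, −2.14 ± 0.11 and −3.03 ± 0.14. dpr13, dpr16, dpr17 and dpr20 were higher at 48 h only. For dpr13 the LPLC2 levels were 5.29, 7.05 and 7.41 against 1.03, 1.42 and 2.09 at 48 h (2.23 ± 0.16), but 3.90, 4.50 and 4.65 against 7.63, 8.22 and 8.72 at 72 h (−0.89 ± 0.06). dpr17 stood at 1.79, 2.26 and 3.02 against 0.672, 0.827 and 1.19 at 48 h, and overlapped the rest later.

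Among the DIP genes, DIP-eta was alone in being higher, and 5 of 9, 5 of 10 and 4 of 9 tested members were lower, with median differences of −1.21, −2.39 and −3.15. DIP-delta, DIP-kappa and DIP-theta were lower at every stage. DIP-kappa was set apart from both LPLC1 and LC4 at 3 stages, DIP-theta at 2 and DIP-delta at 1. DIP-kappa levels in LPLC2 were 0.0554, 0.0633 and 0.0724 at 48 h against 3.21, 3.91 and 4.99 (−5.96 ± 0.12), and the difference was −4.83 ± 0.29 and −4.21 ± 0.39 later. DIP-delta reached at most 0.133 in any LPLC2 cross, with LPLC1 means of 4.31, 2.98 and 2.07. Class X bears on this list: without it 2, 3 and 3 members were higher and 4, 3 and 3 lower. DIP-epsilon, for example, had LPLC2 levels of 0.219, 0.302 and 0.377 at 72 h against means of 0.0298 in LPLC1, 0.00288 in LC4 and 0.375 in class X.

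Of 13 beat genes, 2 were higher (beat-IIIc and beat-VI) and 6 lower (beat-Ia, beat-IIIb, beat-Va, beat-Vb, beat-Vc and beat-VII) at each stage, and without class X 6, 5 and 4 were lower. Of the lower genes, beat-IIIb, beat-Va, beat-Vb and beat-Vc were set apart from both LPLC1 and LC4 at each stage, and beat-Ia and beat-VII at none. beat-IIIc levels were 53.9, 64.0 and 69.2 in LPLC2 against 6.24, 11.9 and 14.7 in the rest at 48 h, and the difference was 2.47 ± 0.17, 1.64 ± 0.26 and 2.46 ± 0.19. beat-VI was at 6.57, 7.43 and 8.05 at 48 h, 4.38, 4.97 and 5.29 at 72 h, and 1.97, 2.40 and 2.66 at 96 h, and was set apart from LPLC1 only at 96 h. beat-IIIb differed by −4.03, −3.10 and −5.05 log2 units. Of the 8 side genes, which encode partners of Beat proteins, side-III and side-V were higher at all stages and side itself was lower at all stages. side-III and side were set apart from both LPLC1 and LC4 at 3 stages, and side-V at 1. LPLC2 side levels were 0.209, 0.391 and 0.844 at 48 h against 17.9, 24.4 and 29.2, a difference of −5.79 ± 0.29, followed by −3.92 ± 0.27 and −5.51 ± 0.21. side-III levels were 7.61, 9.14 and 10.9 against 2.26, 2.60 and 2.96 at 48 h, with LC4 means of 1.01, 1.08 and 0.173.

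**Figure D2:**
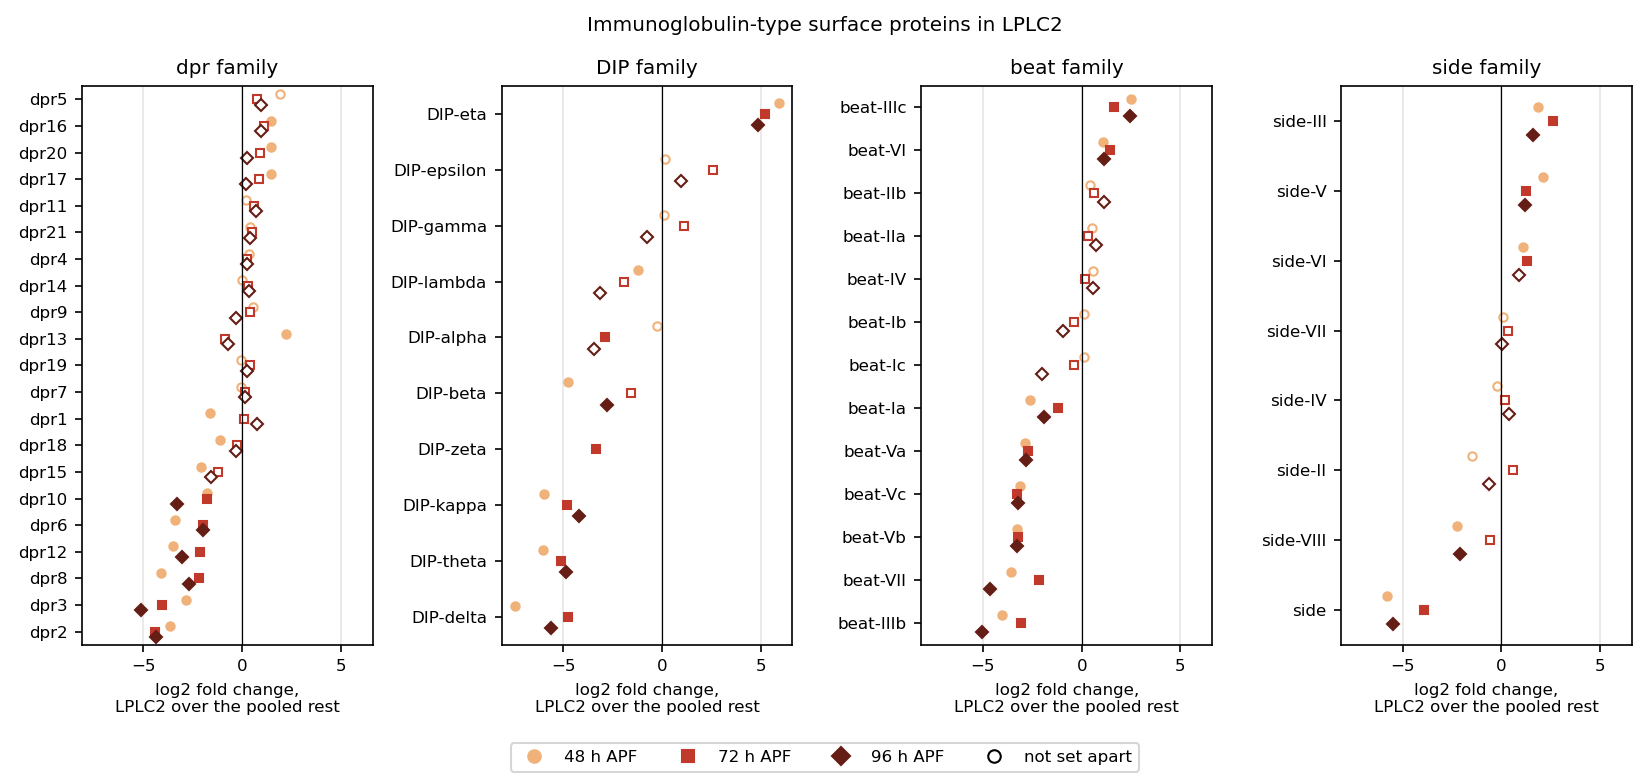
Log2 fold change of LPLC2 over the pooled rest for each tested dpr, DIP, beat and side gene, with circles for 48 h, squares for 72 h and diamonds for 96 h APF. Filled symbols are genes set apart, that is at least 2-fold with no overlap between crosses, and open symbols are the others. DIP-eta is the only filled DIP gene right of 0, and dpr13 lies at 2.23 at 48 h and left of 0 later.

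Beyond these families, 24, 24 and 20 other immunoglobulin adhesion genes were tested, of which 3, 2 and 1 were higher and 11, 10 and 6 lower. hbs was higher throughout, and ed (echinoid), Fas3 (fasciclin 3), fred, CG33543 and tutl (turtle) were lower throughout. CG33543 was lower than in LPLC1 and in LC4 taken singly at 3 stages, Fas3 at 2, fred at 1, and ed and tutl at none. Leucine-rich-repeat proteins gave 5 of 16, 4 of 16 and 2 of 15 higher and 3 lower at each stage, beside 4, 4.65 and 2.37% higher and 4.9, 4.02 and 3.71% lower over all genes. trn (tartan) was higher and Con (connectin), kek5 and Fili lower at each stage. trn and Con were set apart from both LPLC1 and LC4 at 3 stages, kek5 at 1 and Fili at none. Con levels in LPLC2 were 0.0633, 0.0912 and 0.125 against 4.59, 5.68 and 6.17 at 48 h, with differences of −5.88, −4.97 and −5.01. Of 22, 23 and 19 guidance genes, drl and the Wnt receptor fz2 (frizzled 2) were higher at each stage and Drl-2 at 72 and 96 h, whereas NetB (netrin B) was lower at each stage, also than LPLC1 and LC4. Sema2b was called lower than the rest at each stage, but class X averaged 7.89, 4.16 and 3.37 and LPLC1 0.0140, 0.0465 and 0.0272, the latter below the LPLC2 medians of 0.0470, 0.172 and 0.0669. Without class X, 5, 1 and 2 guidance genes were lower. LPLC2 NetB levels were 0.0842, 0.0944 and 0.108 against 0.674, 0.857 and 1.5 at 48 h (−3.30 ± 0.20).

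ChAT (choline acetyltransferase) and VAChT (the vesicular acetylcholine transporter), which mark cholinergic neurons, were present in LPLC2 and not set apart from the rest. ChAT levels were 0.537, 0.699 and 0.774 at 48 h, 2.64, 3.03 and 3.30 at 72 h, and 4.78, 5.12 and 5.98 at 96 h. Median levels of VGlut, the vesicular glutamate transporter, were 0.00448, 0.0374 and 0.0189 in LPLC2, and its calls as lower came with class X means of 6.86, 10.0 and 10.4. Of 16 active zone and vesicle genes, Rab3-GEF was lower at 48 h and none was set apart later. The 12 sodium and calcium channel genes and the 12 activity and heat shock genes included none at any stage. Of 18 potassium channel genes, Elk and Shawl were higher and eag and KCNQ lower at each stage. The shares over all genes were 4, 4.65 and 2.37% higher and 4.9, 4.02 and 3.71% lower at 48, 72 and 96 h. Elk and eag encode related channels of the ether-a-go-go family and went opposite ways. Elk was at 0.434, 0.501 and 0.547 at 48 h, 0.956, 1.19 and 1.37 at 72 h, and 1.34, 1.62 and 1.84 at 96 h in LPLC2, against LPLC1 and LC4 means of at most 0.219. LPLC2 eag was at 0.125, 0.171 and 0.237, then 0.535, 0.737 and 0.805, then 0.657, 0.776 and 0.875, against 3.62 to 7.49 in the rest.

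Of 17, 15 and 15 receptors for amines tested, 6, 5 and 2 were higher and 8, 4 and 5 lower, beside 4, 4.65 and 2.37% higher and 4.9, 4.02 and 3.71% lower over all genes. Without class X 6, 6 and 4 were higher and 6, 3 and 3 lower, so that the balance at 96 h turned. The octopamine receptor Octalpha2R fell steeply, from LPLC2 levels of 25.9, 31.8 and 39.1 at 48 h to 5.45, 7.47 and 8.02 at 72 h and 1.37, 2.35 and 3.47 at 96 h. The rest was at 1.23, 1.30 and 1.93, then 1.02, 1.12 and 1.61, then 0.793, 1.18 and 2.07. The difference was therefore 4.47 ± 0.13, 2.53 ± 0.13 and 0.85 ± 0.22, and the groups overlapped at 96 h. The serotonin receptor 5-HT2B and the dopamine receptor Dop1R2 were higher at each stage, and the serotonin receptor genes 5-HT1A and 5-HT1B, the dopamine receptor gene Dop2R and the octopamine receptor gene Octbeta1R were lower at each stage. For 5-HT1B and Dop2R these calls rested on LPLC1 and class X: LC4 means of 5-HT1B were 0.0770, 0.0722 and 0.177, under the LPLC2 medians of 0.185, 0.273 and 0.378.

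Of 9 nicotinic acetylcholine receptor subunits, 0, 1 and 1 were higher and 1, 1 and 2 lower at the 3 stages. Over all genes the shares were 4, 4.65 and 2.37% higher and 4.9, 4.02 and 3.71% lower. nAChRalpha5 was lower at 48 and 96 h, though at neither stage than both LPLC1 and LC4 taken singly. nAChRalpha3 was higher at 72 and 96 h, with LPLC2 levels of 12.7, 15.9 and 21.0 against 3.36, 4.43 and 6.13 at 72 h (1.78 ± 0.15). nAChRalpha7 was lower at both later stages (−2.22 ± 0.26 and −1.56 ± 0.26), with LC4 means of 97.1 and 48.0 against LPLC2 medians of 11.8 and 9.46. Neuropeptide receptors gave 2 of 26, 3 of 24 and 2 of 21 higher and 12, 10 and 6 lower, where Dh44-R2 was the one gene higher throughout. Without class X 3, 3 and 2 were higher and 10, 8 and 3 lower, beside the shares over all genes given above. sNPF-R, the receptor of short neuropeptide F, had LPLC2 medians of 0.00467, 0.00695 and 0.00291 and LPLC1 means of 0.886, 0.394 and 0.728. Of 13, 12 and 8 neuropeptide genes, 2, 5 and 2 were higher and 5, 2 and 3 lower (at 48 h Dh31, Dh44, Nplp1, Pdf and sNPF), and without class X 4, 1 and 0 were lower. AstC (allatostatin C) was at 0.886, 1.0 and 1.23 in LPLC2 at 72 h, after 0.0678, 0.109 and 0.155 at 48 h, against at most 0.125 in the rest at 72 h.

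The homeobox list gave 2, 2 and 1 higher and 7, 6 and 6 lower of 18, 16 and 14 tested. Beside it, 4, 4.65 and 2.37% of all genes were higher and 4.9, 4.02 and 3.71% lower at 48, 72 and 96 h. Without class X 5, 1 and 1 homeobox genes were lower. The calls lost at 72 and 96 h include ct, an LC4 gene here, since 2 crosses then held LPLC1 cells alone. Of 26, 27 and 23 other identity transcription factors, 5, 7 and 5 were higher and 9, 6 and 3 lower, beside the same shares over all genes. br and kn were among the lower at each stage. Among the higher, bab1, bab2, pros and Sox102F were so at each stage, and Hey, a bHLH factor known as a Notch target, joined them at 72 and 96 h. Hey rose in LPLC2 from 0.0288, 0.0337 and 0.0410 to 0.197, 0.387 and 0.665 and 0.546, 0.944 and 1.39, while the rest was at most 0.143.

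Whether LPLC2 changed differently over time was tested as the change in LPLC2 minus the mean change in LPLC1 and LC4, with edgeR and Benjamini-Hochberg adjustment over 7011 genes at 0.05. A shift shared by all cells of a lane drops out of this difference. From 48 to 72 h it was positive in 1010 genes (14.4%) and negative in 867 (12.4%), with 375 and 215 of them at least 2-fold. From 72 to 96 h it was positive in 906 (12.9%) and negative in 498 (7.1%), with 268 and 136 at least 2-fold. The later split depended on scaling: with DESeq2 size factors it was 688 and 697. Without line_320 the positive count of the later step was 569, and without line_799 it was 597. Within the older and the younger crosses alone, 543 and 418 genes were negative in the first step and 551 and 391 positive in the second, and in thinned cells 562 were negative in the first. LC4 had only 14 and 12 cells in the 48 h crosses of line_399 and line_555. LPLC2 itself rose in 754 of the 1010 genes and fell in 599 of the 867 in the first step, and rose in 477 of the 906 and fell in 272 of the 498 in the second. The median difference over all genes was −0.033 and 0.094.

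Among genes with at least 1 UMI per 10000 in LPLC2 at its higher stage, the 6 with the largest positive difference from 48 to 72 h were CG14274, Dh31, ATP8B, 5-HT2B, Lmpt and CG13323. LPLC2 levels of CG14274 (now named witty) went from 0.0400, 0.0826 and 0.160 to 1.73, 2.14 and 2.48, while LPLC1 means were 0.0734 and 0.0811 and LC4 means 1.54 and 1.69. The difference of the changes was 4.40 ± 0.26 (edgeR adjusted p = 2.5146e-19), and by 96 h the LPLC2 levels were back at 0.117, 0.155 and 0.201. ATP8B, a phospholipid flippase gene, went from 0.0798, 0.146 and 0.196 to 3.61, 4.11 and 4.84 in LPLC2, and from means of 0.425 to 1.49 in LPLC1 and 0.670 to 1.46 in LC4 (3.29 ± 0.23, adjusted p = 7.2662e-17). The neuropeptide gene Dh31 went from 0.0687, 0.113 and 0.288 to 1.96, 3.22 and 4.32 in LPLC2, still under the LPLC1 mean of 15.7 (3.93 ± 0.56, adjusted p = 2.0328e-07). For 5-HT2B the LPLC2 levels of 1.28, 1.55 and 1.77 became 1.45, 1.86 and 2.12, a change of 0.29, while LPLC1 and LC4 fell by 1.54 and 4.27 on the log2 scale (3.20 ± 0.21, adjusted p = 1.0178e-17).

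With the same minimum, the 6 genes with the largest negative difference in this step were CG7991, dpr13, Ccn, CG43373, esn and CG45263. Exons of CG43373 overlap those of CG42514 on the same strand. CG7991 fell in LPLC2, from 1.28, 1.5 and 1.87 to 0.0330, 0.103 and 0.120, against LPLC1 means of 0.921 and 0.957 and LC4 means of 1.12 and 1.21 (−4.21 ± 0.16, adjusted p = 7.7677e-27). At 96 h it stood at 0.0587, 0.10 and 0.116. The dpr13 difference of −3.39 ± 0.16 (adjusted p = 1.3402e-22) came mostly from the other types, whose means went from 1.02 to 8.87 in LPLC1 and from 1.68 to 8.03 in LC4, while LPLC2 changed by −0.56. esn (espinas), a LIM-domain gene of dendrite development, fell from 2.99, 3.14 and 3.54 to 0.155, 0.237 and 0.368 in LPLC2 (−2.92 ± 0.26, adjusted p = 2.375e-13). CG45263 had LPLC2 levels of 17.7, 18.6 and 20.6 at 48 h and 11.3, 13 and 14.4 at 72 h, against LPLC1 means of 0.251 and 1.70.

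From 72 to 96 h the largest positive differences, with the same minimum, were those of bma, CG8861, CG2201, Dop1R2, twz and Df31, and in none of them did LPLC2 itself rise past the threshold. LPLC2 bma fell from 2.15, 3.19 and 4.12 to 1.08, 1.37 and 1.78, a change of −1.30, whereas LPLC1 and LC4 fell by 4.0 and 3.67 on the log2 scale (2.53 ± 0.40, adjusted p = 3.5209e-06). Dop1R2 changed by −0.21 in LPLC2 (2.10 ± 0.52, adjusted p = 0.0019004). Df31, a chromatin decondensation factor, went from 1.76, 2.84 and 3.88 to 1.01, 1.94 and 2.42 in LPLC2 and from means of 1.54 to 0.138 in LC4 (2.02 ± 0.33, adjusted p = 7.9718e-06). None of the 6 differences passed the threshold as positive when LPLC2 was set against the pooled rest, in which the share of class X rose. That of CG2201 was then −1.65 and past the threshold as negative, and without line_535 or line_799 its positive difference did not pass.

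The largest negative differences of this step at that minimum were those of Sytalpha, CG6006, Cbp53E, CG45002, CG15431 and drl. Sytalpha encodes a synaptotagmin of vesicle traffic. LPLC2 levels were 0.0604, 0.0874 and 0.120 at 48 h, 0.622, 0.885 and 1.07 at 72 h, and 2.55, 3.18 and 3.69 at 96 h, while LPLC1 means were 0.0339, 0.0310 and 1.57 and LC4 means 0.107, 0.0189 and 2.46. LPLC2 thus rose in the first step, with a difference of 4.69 ± 0.33 (adjusted p = 1.5763e-16), and the other types in the second (−4.50 ± 0.23, adjusted p = 5.9185e-21). Cbp53E, a calbindin-type calcium-binding protein, stayed at 9.05, 10.4 and 11.2 and then 10.1, 11.1 and 11.5 in LPLC2, while LPLC1 went from 8.48 to 49.9 and LC4 from 0.495 to 2.78 (−2.40 ± 0.26, adjusted p = 4.2435e-10). drl fell by 1.5 log2 units in LPLC2 (−2.09 ± 0.22 against the other types).

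**Figure D3:**
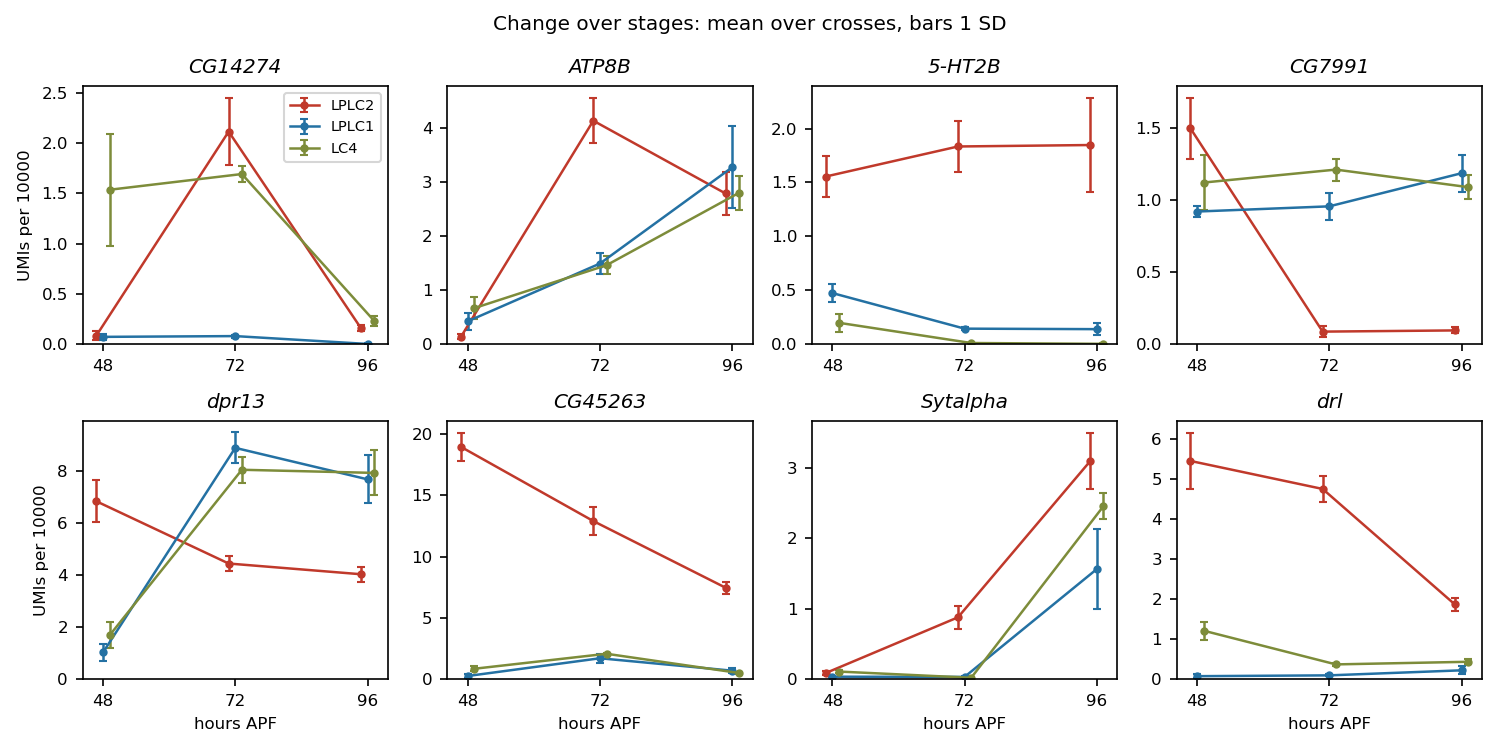
Levels of 8 genes with large differences between the types in change over time, as the mean over crosses with bars of 1 SD, at 48, 72 and 96 h APF. LPLC2 and LPLC1 are means of 6 crosses at each stage, and LC4 of 6 at 48 h and 4 later. CG7991 falls in LPLC2 from 48 to 72 h, and Sytalpha is higher in LPLC2 than in LPLC1 and LC4 at 72 h.

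By family, beside 14.4% of all genes positive and 12.4% negative, the first step held 9 positive and 5 negative differences among 21 dpr genes and 5 and 1 among 9 DIP genes. DIP-epsilon had the largest of the DIP differences, 4.58 ± 0.35 (adjusted p = 2.1198e-15), where LPLC2 rose by 1.46 and LPLC1 and LC4 fell by 1.94 and 4.30 on the log2 scale. In the second step, beside 12.9% of all genes positive and 7.1% negative, the counts were 5 and 3 for dpr genes. Of 13 neuropeptide genes 6 were positive in the first step (AstA, AstCC, Dh31, Dh44, Nplp1 and spab), with a median of 1.77. Of 26 neuropeptide receptors 9 were positive and 2 negative, and of 10 nicotinic subunits 3 were positive, nAChRalpha3 among them (1.03 ± 0.16, adjusted p = 1.5595e-06), and 6 negative. ChAT and VAChT were positive in this step (0.68 ± 0.16 and 0.40 ± 0.13, adjusted p = 0.00098782 and 0.018025), their LPLC2 levels rising by 2.22 and 1.68 log2 units. Of 16 active zone and vesicle genes 6 were positive and 2 negative, then 2 and 4, and with the DESeq2 size factors 6 and 1, then 1 and 4.

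Differences between strains within LPLC2 were tested over the 5 strains that recur at all stages, line_399, line_535, line_730, line_799 and line_805, with stage in the model and the differences taken within the older and within the younger collection. Of 6509 genes, 32 passed the adjusted threshold (0.492%), and 468 had an unadjusted p under 0.05. The count was 55 by the DESeq2 likelihood ratio test, 71 over all differences among the 5 strains and 185 with no filter on low counts, of which 50, 61 and 121 lie on chromosome 3. Of the 32 genes, 30 lie on chromosome 3, the one the strains were chosen to differ in, out of 2834 tested there (1.06%). One each lies on 2L and X. Each stage bore weight: without 48, 72 or 96 h, 6, 4 and 14 genes passed. In LPLC1, 26 of the 32 could be tested, 5 of them passed there too, and in 4 of these the same strain was highest.

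The gene pyd encodes a fly homologue of the ZO-1 protein of cell junctions. Strain line_799 was lowest at each stage, with LPLC2 levels of 1.78, 1.22 and 1.12 at 48, 72 and 96 h, while the other strains ranged from 2.52 to 3.0, from 1.72 to 2.16 and from 2.40 to 2.85 (edgeR adjusted p = 0.0037774). In LPLC1 the same strain was lowest at each stage, with 2.70, 1.94 and 4.50 (adjusted p = 0.0078146). Rbfox1, an RNA-binding splicing regulator, was highest in line_799 at each stage, at 38.1, 21.0 and 25, against highest values of 28.3, 16.8 and 18.9 in the other 4 (adjusted p = 0.011645). In LPLC1 the Rbfox1 levels of line_799 were 16.9, 15.6 and 13.6, highest of the 5 at 72 h only, and the test did not pass there (adjusted p = 0.99966).

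Hsp70Bc, a heat shock gene with near-identical copies to which reads could belong, was lowest in line_399, at 1.38, 1.49 and 0.957, against 2.33 to 4.24 in the other 4 strains (adjusted p = 0.0031323). AdoR, the adenosine receptor, was at 0.542, 2.12 and 1.45 in line_535 and 0.507, 1.76 and 1.92 in line_805, but at 0.122, 1.02 and 0.603 in line_799 and 0.145, 0.973 and 0.616 in line_730 (adjusted p = 0.0033539). AdoR was set apart from LPLC1 and LC4 at each stage in spite of this spread, with LPLC1 and LC4 means of at most 0.111. GlcAT-P, a glucuronyltransferase, was at 1.06, 1.31 and 1.85 in line_799 and 1.23, 1.33 and 1.92 in line_805, below all of line_399, line_535 and line_730 at each stage (adjusted p = 0.0033539). CG6310 was highest in line_799, at 1.5, 1.86 and 0.328, and lowest in line_730 at 48 and 72 h, at 0.410 and 0.663 (adjusted p = 0.00010518). The 4 other genes named by the rule, tara, Pzl, FoxP and scyl, had ranges of 0.95, 0.83, 0.64 and 0.52 log2 units between the highest and the lowest strain.

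**Figure D4:**
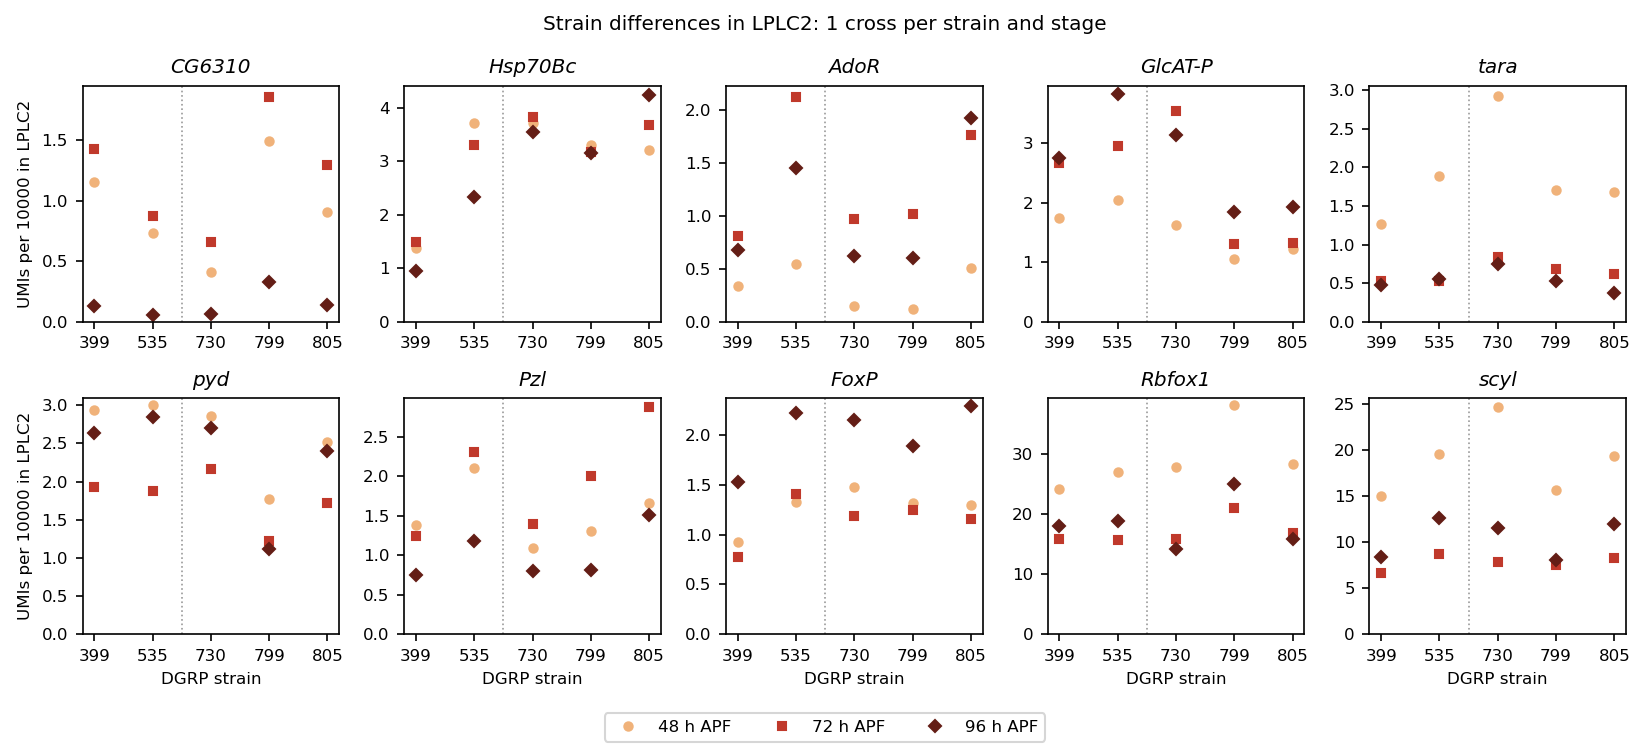
LPLC2 levels, in UMIs per 10000, of the 10 genes with the largest strain differences past the threshold, for each of 5 DGRP strains, with 1 point per cross and stage. Only genes with a mean of at least 1 UMI per 10000 in the highest strain were ranked. The dotted line parts the older collection (line_399 and line_535) from the younger (line_730, line_799 and line_805). pyd in line_799 and Hsp70Bc in line_399 are lowest at all 3 stages.

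LPLC2 cells yielded fewer UMIs than the rest. The median UMIs per cell averaged 18379 ± 1526 in LPLC2 and 22048 ± 987 in the rest at 48 h (SD, n = 6 crosses each, exact two-sided permutation test, p = 0.0048701 adjusted over 9 tests). At 72 h they were 20716 ± 1428 and 25462 ± 1528 (exact permutation, adjusted p = 0.0048701), and at 96 h 17100 ± 1176 and 19220 ± 1253 (exact permutation, adjusted p = 0.022263). LPLC2 was lower in 6 of 6 crosses at each stage. The 96 h difference did not pass without line_320, line_535 or line_805, nor against LPLC1 alone, where it was −899.6 UMIs. Genes detected per LPLC2 cell were 3075 against 3338, 3164 against 3402 and 3012 against 3075 (exact permutation, adjusted p = 0.0048701, 0.0077922 and 0.34199). The mitochondrial share was 2.63 against 2.37%, 2.61 against 2.33% and 3.04 against 3.22% (exact permutation, adjusted p = 0.0048701, 0.016234 and 0.20698). It was lower in LPLC2 in 0, 1 and 6 of 6 strains at the 3 stages. The permutation does not pair LPLC2 with the rest of its strain, so a p that misses the threshold does not show that the shares were alike. The smallest p this design allows is 0.0021645 before adjustment. Levels are per 10000 UMIs, and the part of this depth gap in the gene differences was not tested. When cells were thinned to 10000 UMIs and those with fewer were dropped, every count of set-apart genes fell, by less than 1.5 times. Higher genes then numbered 219, 246 and 104 and lower genes 268, 197 and 163 at 48, 72 and 96 h.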

How the data were processed

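Cells were counted and clustered before deposit. The deposited tables hold whole UMI counts per gene and cell barcode, made by the authors with Cell Ranger on the dm6 genome, and the authors' annotation gives each cell's strain, collection group and type (from clustering in Seurat 5.0.1) and its mitochondrial percent. Cells doubtful as to strain had been removed by demultiplexing on variants, so doublets between strains were dropped and doublets within a strain remained. No doublet caller was run here. Whether counting used strand is not given in the sources used here. The methods state a range of 10000 to 50000 UMIs and at most 10% mitochondrial UMIs per cell, whereas annotated cells start at 5005 UMIs, and all annotated cells were kept. Gene positions are those of the Ensembl annotation of dm6, with 17762 of 17824 genes matched, and 549 of 572 list entries matched a gene. No sequence is printed.

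UMIs were summed per type, strain and stage where at least 10 cells were present. Genes were kept by filterByExpr and fitted with edgeR 4.0.16 (TMM, quasi-likelihood F-test, Benjamini-Hochberg adjustment at 0.05) in R 4.3.3, with DESeq2 1.42.0 for alternatives. The SE beside a log2 difference is the size of that difference divided by the square root of its F statistic. For LPLC2 against the rest it is a description and not a test. Fits between stages used LPLC2, LPLC1 and LC4 sums, and strain fits used 5 strains over 3 stages with differences taken within collection groups. Depth per cell was compared by exact permutation of crosses. P-values of the stage and depth tests measure the spread between crosses, each of which pooled animals. The strain fits had 1 cross per strain and stage. Their p-values set differences between strains of a collection group against the variation of strain levels over the stages beyond the shared stage effect.

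Genes named are the 12 higher and 8 lower with the largest median difference over the stages, among genes set apart at all stages with at least 1 UMI per 10000 in the higher class, then the 6 per direction and step with the largest tested difference and the 10 with the largest strain range, at the same minimum. List members set apart at all stages or with large values could be named too, and esn, CG45263 and other members of these sets are given in short. The members, lists and rules were chosen with earlier results of these data known. Alternatives were other comparison cells, folds, scalings, filters, thinning, DESeq2, a strain block and leaving out each strain or stage. The fits by collection group, and the depth comparisons with LPLC1 or LC4 alone, were chosen after seeing the data.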

Additional observations from a re-analysis of the deposited data

Results flagged for a closer look

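Of 165 sets of 6 LPLC2 crosses examined, 15 held a cross that stood far from the other 5, where chance alone gives about 5% of sets. Of the 15, 5 concern genes named because their strains differ (CG6310, Hsp70Bc, pyd and, at 2 stages, Rbfox1), so the number of such sets cannot be read against that share. Cross line_799 was highest for 5-HT1A at 48 h (0.0498, next 0.0221), for CG6310 at 96 h (0.328, next 0.140), for Ccn at 72 h (3.39, next 2.50), for Rbfox1 at 48 h (38.1, next 28.3) and 72 h (21.0, next 16.8), for bru3 at 96 h (0.233, next 0.128) and for twz at 48 h (4.11, next 3.25). It was lowest for dpr13 at 72 h (3.90, next 4.46) and for pyd at 96 h (1.12, next 2.40). Cross line_399 was lowest at 48 h for Hsp70Bc (1.38, next 3.21) and dpr13 (5.29, next 6.74). Cross line_805 was highest for 5-HT1A at 72 h (0.176, next 0.0813) and hbs at 96 h (1.39, next 1.05). Cross line_730 was highest for Dop1R2 at 72 h (2.63, next 1.89) and had the lowest mitochondrial share at 72 h (2.25%, next 2.62%). All levels are UMIs per 10000.

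The change over time differed between LPLC2 and the mean of LPLC1 and LC4, by the test of the difference itself, in 1010 genes upward and 867 downward from 48 to 72 h, and in 906 upward and 498 downward from 72 to 96 h (edgeR, Benjamini-Hochberg adjustment).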

How the results depend on the processing

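Of the counts and depth comparisons under all alternatives, 278 values kept their call or stayed within 1.5 times, 41 moved, 3 became stronger, 10 weaker and 1 reversed. Of the values for named genes, 823 kept their call, 39 lost it and 5 reversed. The causes were not tested. The deficit of bru3 reversed with class X left out (0.23), with LPLC1 and LC4 at equal weight (0.24) and against LPLC1 alone (0.68), and the later changes of bma (−0.40) and CG2201 (−1.65) reversed against the pooled rest. Genes per cell at 96 h reversed against LPLC1 alone (39.7).

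Higher genes numbered 307 at 96 h and 112 over all stages at equal weight of LPLC1 and LC4, and 92 over all stages against LPLC1 alone. The equal-weight comparison left out class X and judged overlap on strains with both types, which were 4 at 72 and 96 h. Against LC4 alone higher genes numbered 459, 735 and 618 at the stages and 181 over all, and lower genes 527 at 72 h and 394 at 96 h. LC4 had 6 crosses at 48 h but 4 at 72 and 96 h. At 1.5-fold there were 417 higher and 501 lower genes at 48 h, 219 higher at 96 h and 86 higher over all stages. At 4-fold there were 102, 140 and 58 higher and 186, 150 and 134 lower at the stages, and 22 and 63 over all stages.

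For changes over time, the pooled rest gave 512 downward in the first step and 408 upward in the second, LPLC1 alone gave 602 and 516 in the first and 516 and 270 in the second, LC4 alone gave 776 downward in the second, and thinned cells 562 downward in the first. Older crosses gave 543 downward in the first step and 551 upward in the second, and younger ones 418 and 391. Leaving out 1 strain at a time gave 569 to 943 upward in the second step, lowest without strains line_320 (569) and line_799 (597). With the DESeq2 size factors the second step gave 688 and 697.

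Strain differences numbered 55 by the DESeq2 likelihood ratio test (50 on chromosome 3), 185 with no filter (121 on chromosome 3), 71 over all differences among the 5 strains (61 on chromosome 3), and 4 to 14 without 1 stage. The mitochondrial difference at 72 h was 0.276 points by the mean over cells and 0.131 against LPLC1 alone, neither past the threshold, and 0.252 to 0.357 without 1 strain. At 48 h it was 0.101 against LC4 alone, not past it. At 96 h it was −0.574 against LPLC1 alone and −0.292 in cells of the stated filter, both past it. UMIs per cell at 96 h differed by −899.6 against LPLC1 alone and by −2489 to −1599 without 1 strain, and genes per cell by −118 at 72 h against LPLC1 alone and −207 at 96 h against LC4 alone, the last past the threshold.

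LPLC2 and the rest of the same strain share strain numbers. Of 18 same-strain correlations of deviations, 16 were over 0.1, and those of line_320 (0.046) and line_805 (0.072) at 72 h were not. The same strain did not give the best correlation for line_399 and line_535 at 48 h or line_320 and line_805 at 72 h. Nor did it for line_320, line_399 and line_730 at 96 h. With the replicate block 59 genes were higher and 95 lower over all stages, and 1120 and 1000 genes changed in the first step and 1023 and 566 in the second. The block changed no call of a named gene. Depth limits the 96 h crosses most, with 55 to 109 LPLC2 cells each.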
